A study of Homo sapiens with 4 samples.

Results

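The genes described here are 44 interferon-stimulated genes, chosen by symbol from a list of textbook interferon targets. They were grouped into 9 subfamilies by gene family or by what their products do, and the last of these holds the remaining genes. The list was made with earlier results of these data known, so its comparisons with all genes below are descriptive. All 44 were found among the 20372 genes of the deposited count table, and all 44 had enough reads to be tested. They were measured in TPC1, a human cell line from a papillary thyroid cancer in which CCDC6 is fused to RET, so that the RET kinase domain is constantly active. All cells received the selective RET inhibitor BLU6864 for 24 h. In the RETi group (2 libraries) it was given alone, and in the RETi + FGFRi group (2 libraries) it was combined with BGJ398, an inhibitor of fibroblast growth factor receptors. No untreated cells and no cells on BGJ398 alone were analysed here, so every difference below is between the RETi + FGFRi and RETi libraries. The labels put each inhibitor at 100 µM. The methods of the study give 100 nM of each for this experiment, so the unit in the labels is in doubt. Whether replicate libraries stand for separate cultures is not given, and p-values therefore reflect only how far these libraries spread, which may be technical.

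Interferons are secreted cytokines that cells release when they detect foreign or misplaced nucleic acid. Type I interferons bind the IFNAR1/IFNAR2 receptor, whose kinases JAK1 and TYK2 phosphorylate STAT proteins. STAT2 and IRF9 are parts of the resulting complex ISGF3, which enters the nucleus and binds the interferon-stimulated response element, a DNA motif close to the start of many target genes. The target genes encode proteins that bind viral RNA, block entry into the cell or stall translation, and they also include STAT2, IRF9 and IRF7 themselves. Many tumour lines express some of these genes without added interferon.

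Total counts per library ranged from 24695040 to 27457040, and 12794 genes were tested. Of the thyroid transcription factors, PAX8 had 18168 to 21660 counts per library, FOXE1 had 345 to 556 and NKX2-1 had 0. Of the thyroid differentiation genes, TG, which encodes thyroglobulin, had 98 to 149, and TSHR and SLC5A5 had 0 to 5. Leukocytes are a common source of interferon target transcripts. Of 8 leukocyte markers only CD14 passed the filter on low counts (62 to 91 counts, no call). PTPRC had 3 counts in RETi replicate 1 and 0 in the other libraries, and MS4A1, CLEC4C and IL3RA had 0 in all 4. The summed leukocyte list had 64.4 to 83.7 normalised counts in the RETi + FGFRi libraries and 89.2 to 91.2 in the RETi libraries. The summed endothelial list had 3.92 to 6.04 in all 4 libraries, from CDH5 and VWF only, as PECAM1 was not among the genes counted. The summed fibroblast list had 132 and 154 with RETi and 176 and 154 with RETi + FGFRi. In that list LUM had 71 and 66 counts against 100 and 101 (log2 0.64, edgeR adjusted p = 0.027), COL1A1 had 63 and 95 against 66 and 52 (log2 -0.33, adjusted p = 0.36) and DCN had 0 or 1. The LUM call was lost with DESeq2 (0.098) and without RETi replicate 1 (0.088) or 2 (0.18). Of the keratin genes, KRT7, KRT8 and KRT18 fell (log2 -0.68, -0.28 and -0.72) and KRT19, at 37 to 45 counts, did not pass (log2 0.26). The epithelial markers outside the keratins were nearly absent, EPCAM with 0 or 1 counts per library and CDH1 with 1 to 3. The KRT8 call was lost with DESeq2 (0.052) and without RETi + FGFRi replicate 1 (0.073), RETi replicate 1 (0.095) or RETi replicate 2 (0.16). The part of these markers in the results below was not tested. These are bulk RNA libraries, so a change in the number of expressing cells and a change in RNA per cell cannot be told apart.

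Of the 44 interferon-stimulated genes, 21 rose with RETi + FGFRi, 0 fell and 23 did not pass the test (edgeR quasi-likelihood test, adjusted p under 0.05 over all genes tested). Among all 12794 tested genes, 12.8% rose and 11.3% fell. The log2 fold change was positive in 41 of the 44 members, with a median of 0.38 (range -0.24 to 1.18), beside a median of 0.00 over all genes tested. Of the 21 that rose, 10 did so by at least 1.5-fold, and 3 of these by at least 2-fold (IFIT1, IFI44L and XAF1). At an unadjusted p under 0.05, edgeR placed 31 members higher and 1 lower, LGALS3BP. DESeq2 placed 27 higher and the same gene lower, and likewise called none lower after adjustment. The share of all genes at an unadjusted p under 0.05 was not counted, here or below. In 30 members both RETi + FGFRi libraries lay above both RETi libraries, in 1 (LGALS3BP) both lay below, and in 13 the groups overlapped. Over all tested genes 32.1% lay wholly above and 33% wholly below.

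The RETi + FGFRi libraries did not agree closely with each other over these genes, and this bears on most of the results. RETi + FGFRi replicate 1 was the higher of the pair in 42 of 44 members (the exceptions were IFIT2 and IFITM2), against 46.9% of all tested genes. The median log2 ratio of replicate 1 to replicate 2 was 0.40 over the members and -0.01 over all genes. In 16 members it exceeded 0.46, the 95th percentile over all genes. The RETi libraries were closer, with replicate 1 higher in 37 of 44 members (49.7% of all genes), a median log2 ratio of 0.13 and 4 members beyond the 95th percentile of 0.29. Relative to the RETi mean, the median member was 0.53 higher on the log2 scale in RETi + FGFRi replicate 1 and 0.18 higher in replicate 2. Replicate 1 exceeded both RETi libraries in 41 members and replicate 2 did so in 30, where about the same share of all genes did so (41.6% and 41.8%). With RETi + FGFRi replicate 1 left out, the same fit called 10 members higher and 1 lower (all genes 15% and 11.6%), and the members' median was 0.18. With replicate 2 left out it called 38 higher and 0 lower (all genes 13.2% and 11.1%), with a median of 0.54. Leaving out RETi replicate 1 gave 19 higher and 0 lower (6.53% and 5.02%) and a median of 0.41, and leaving out RETi replicate 2 gave 7 higher and 0 lower (5.3% and 4.24%) and a median of 0.34. What set RETi + FGFRi replicate 1 apart was not tested. When a library is left out, the lone library of its group is assumed to vary like the other group.

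The members took 0.496% and 0.467% of all counts in the RETi libraries, and 0.688% and 0.529% in RETi + FGFRi replicates 1 and 2. The 4 IFIT genes accounted for 0.0894% and 0.0764% of counts with RETi and for 0.152% and 0.142% with RETi + FGFRi, so their share was raised to nearly the same level in both libraries. The other 40 members took 0.407% and 0.39% with RETi, and 0.537% and 0.387% with RETi + FGFRi. Their share in RETi + FGFRi replicate 2 was thus close to that of the RETi libraries, and their summed normalised counts there (105703) lay between those of the RETi libraries (105735 and 102814). Without LGALS3BP, an abundant member with fewer counts in RETi + FGFRi, the share was 0.334% and 0.312% with RETi and 0.468% and 0.329% with RETi + FGFRi. The summed normalised counts without it were 86785 and 82088 with RETi and 122293 and 90030 with RETi + FGFRi. By that measure both RETi + FGFRi libraries lay above RETi, replicate 2 by a small margin.

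**Figure D1:**
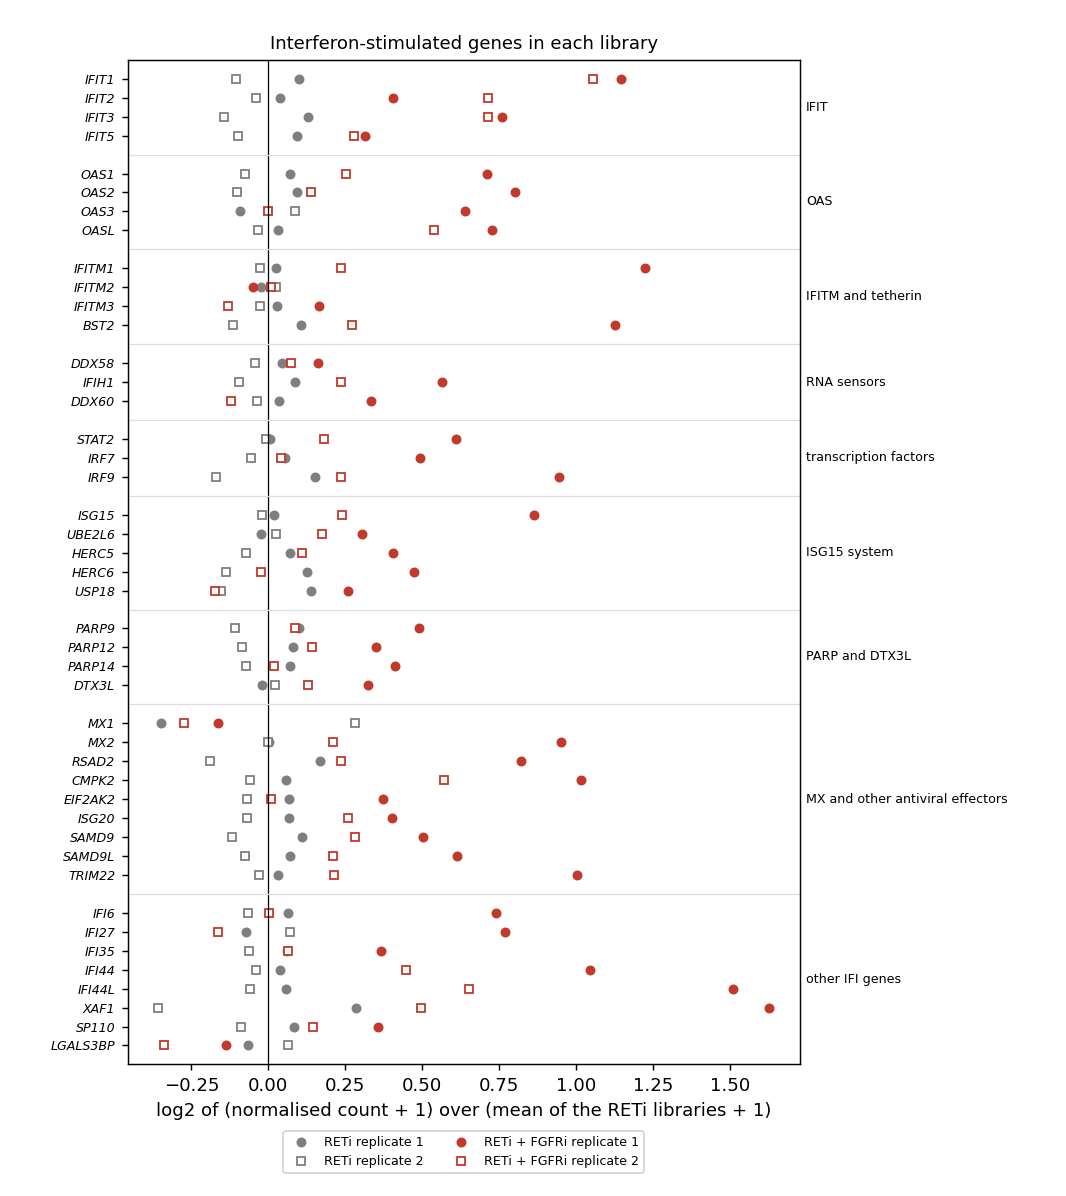
Each interferon-stimulated gene in each library, as the log2 ratio of its normalised count (plus 1) to the mean of the RETi libraries (plus 1). Grey marks are RETi and red marks are RETi + FGFRi, filled for replicate 1 and open for replicate 2. The red marks lie close together for IFIT1, IFIT3 and IFIT5, and far apart for IFI44L, IFITM1, BST2 and IFI27, with replicate 1 the higher in 42 of 44 genes.

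**Figure D2:**
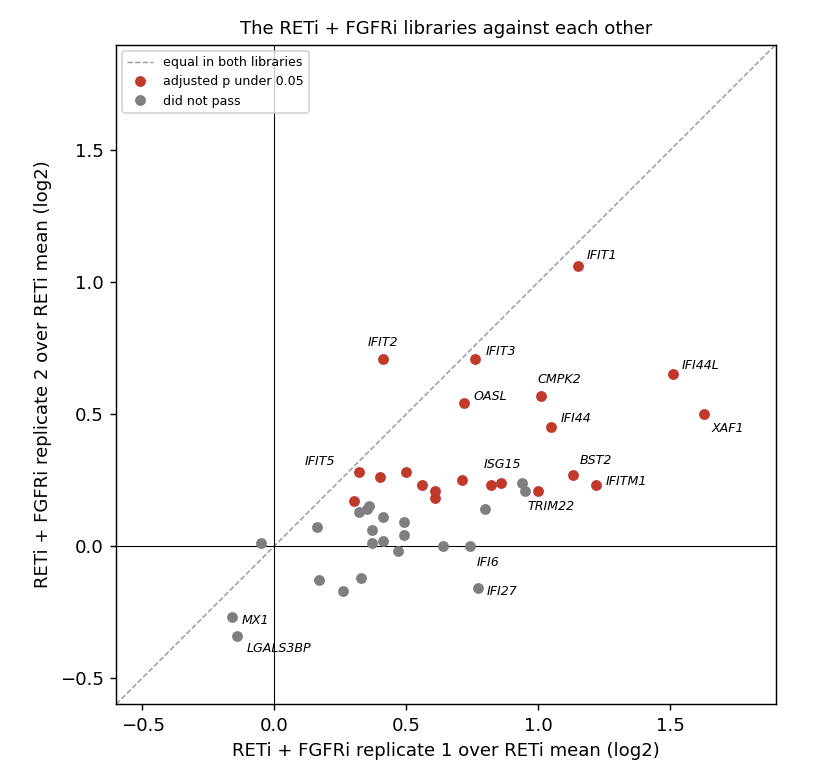
The log2 ratio to the RETi mean in RETi + FGFRi replicate 1 (x axis) and replicate 2 (y axis), 1 point per gene, red where adjusted p was under 0.05. Points on the dashed line are equal in both libraries, and all points but IFIT2 and IFITM2 lie below it.

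The response element was looked for in the DNA before the start sites of these genes. RefSeq promoter windows (GRCh38.p14, from 250 bases before to 50 after a start of transcription) matched 36 of the 44 members by symbol or synonym, with 48 windows. The core of the element was searched on both strands as GAAA, any 2 bases and GAAA, which reads TTTC, any 2 bases and TTTC from the other side. It was found in 25 of 36 members (69.4%), against 4.38% of 27305 genes with a window, and in 29 of 48 member windows (60.4%) against 3.57% of 35116 windows. Members that rose and members that did not pass carried it about equally often, in 12 of 18 (66.7%) and in 13 of 18 (72.2%). The palindromic STAT dimer site, TTC, any 3 bases and GAA, was found in 10 of 36 members (27.8%), against 9.38% of all genes, and in 11 of 48 member windows (22.9%) against 7.66% of all windows. A match is a match of letters and does not show that a factor binds there.

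The 180 bases before the start of transcription are printed for 5 members that rose and for IFITM3, which did not pass and carries the same motif. The stretches run 5′ to 3′ on the strand of the gene, end at the base before the start, and have each match to the core of the element in capitals.
IFIT1 (chr10:89392443-89392622, plus strand): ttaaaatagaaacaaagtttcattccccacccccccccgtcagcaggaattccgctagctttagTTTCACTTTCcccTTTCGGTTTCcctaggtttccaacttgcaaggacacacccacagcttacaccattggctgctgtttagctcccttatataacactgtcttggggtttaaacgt
IFIT3, second window (chr10:89332349-89332528, plus strand): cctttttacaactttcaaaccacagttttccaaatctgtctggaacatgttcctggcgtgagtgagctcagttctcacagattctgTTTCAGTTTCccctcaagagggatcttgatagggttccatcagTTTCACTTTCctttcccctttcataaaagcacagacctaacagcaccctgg
IFIT5 (chr10:89414388-89414567, plus strand): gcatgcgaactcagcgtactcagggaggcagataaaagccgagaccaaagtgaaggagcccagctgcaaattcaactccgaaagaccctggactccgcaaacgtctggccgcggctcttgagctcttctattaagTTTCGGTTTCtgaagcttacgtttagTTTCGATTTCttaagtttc
ISG15 (chr1:1013317-1013496, plus strand): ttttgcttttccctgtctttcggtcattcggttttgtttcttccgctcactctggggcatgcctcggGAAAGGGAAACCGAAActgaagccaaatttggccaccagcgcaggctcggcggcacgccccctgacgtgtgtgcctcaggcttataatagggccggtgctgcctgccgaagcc
IFI44L (chr1:78620268-78620447, plus strand): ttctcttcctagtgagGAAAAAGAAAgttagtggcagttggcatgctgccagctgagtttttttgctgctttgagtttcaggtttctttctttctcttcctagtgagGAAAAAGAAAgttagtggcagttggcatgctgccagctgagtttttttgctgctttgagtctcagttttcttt
IFITM3 (chr11:320861-321040, minus strand): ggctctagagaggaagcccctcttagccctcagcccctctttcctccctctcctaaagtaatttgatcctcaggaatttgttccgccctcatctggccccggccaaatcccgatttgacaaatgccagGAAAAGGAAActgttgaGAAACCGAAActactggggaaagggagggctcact
In IFIT1 the matches start 116 and 103 bases before the start of transcription and lie 3 bases apart, both on the opposite strand. In ISG15 they start at 113 and 107 bases and overlap by 4 bases, so the capitals form 1 run. In IFI44L the same 10 letters occur at 164 and at 73 bases. In IFIT3 the matches start at 94 and 51 bases, and in IFIT5 at 45 and 19 bases, with a further match in IFIT5 that begins 4 bases before the start and crosses it. In IFITM3 they start at 52 and 35 bases.

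**Figure D3:**
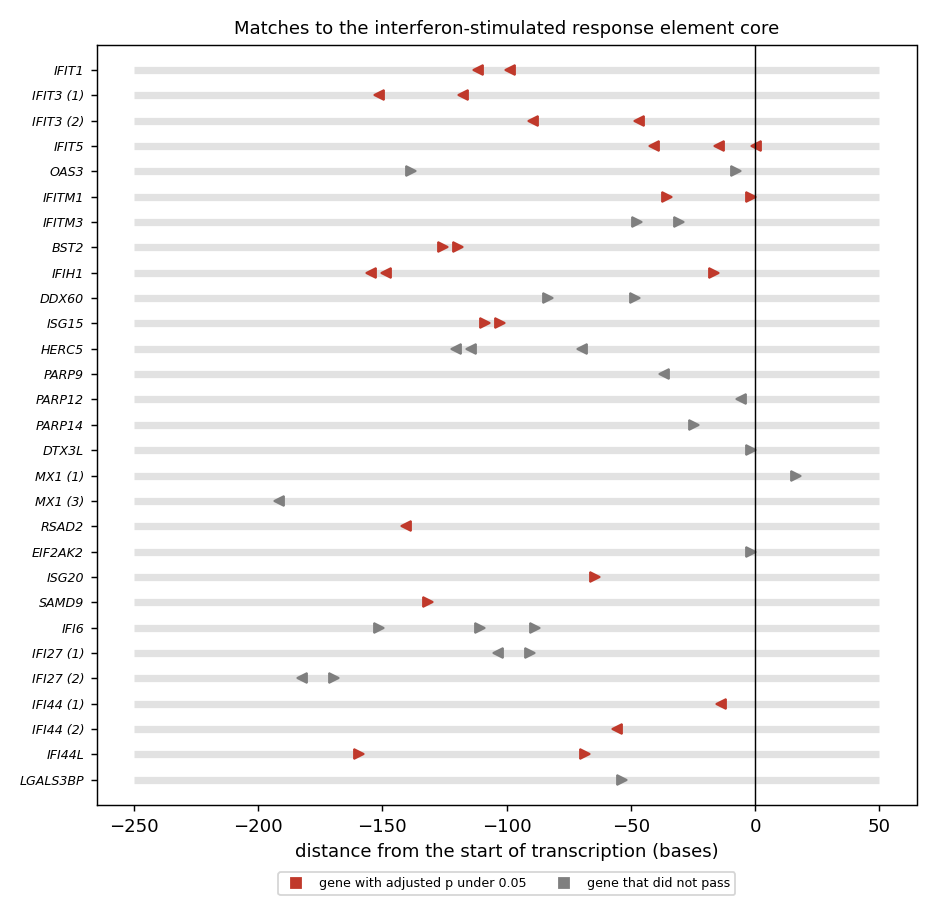
Positions of matches to the core of the response element in the promoter windows of the members that carry one (x axis, distance in bases from the start of transcription at the vertical line), with the window number after the gene where it has several. Right-pointing marks are matches on the strand of the gene and left-pointing marks on the other strand, red for genes that rose and grey for genes that did not pass. Most matches lie within the 180 bases before the start, in red and grey genes alike.

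The IFIT genes encode proteins with tetratricopeptide repeats that bind RNA and restrain viral translation: IFIT1 recognises RNA that lacks the methyl groups of a host cap, and IFIT3 binds and stabilises it. All 4 lie near each other on chromosome 10 (hg19), from IFIT2 (chr10:91061712-91069033) and IFIT3 (chr10:91087651-91100728) to IFIT1 (chr10:91152303-91163745) and IFIT5 (chr10:91174343-91180758), and all 4 rose. Gene coordinates here and below are those of hg19 as deposited. IFIT1 (ENSG00000185745) had 10334 and 8971 normalised counts (deposited counts divided by 1 size factor per library) in RETi replicates 1 and 2, and 21351 and 20064 in RETi + FGFRi replicates 1 and 2. The groups lay far apart, and each pair was close. The mean went from 9653 ± 964 to 20707 ± 909.6 (SD, n = 2), a 2.14-fold rise (log2 fold change 1.10, SE 0.095, edgeR adjusted p = 5.4e-05).

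IFIT3 had 7553 and 6254 normalised counts with RETi and 11676 and 11314 with RETi + FGFRi, again without overlap and with the RETi + FGFRi libraries close together. Its rise was 1.66-fold (log2 0.73, SE 0.097, edgeR adjusted p = 0.00082). IFIT2, which can promote death of infected cells, had 3282 and 3114 normalised counts against 4235 and 5247. It was 1 of the 2 members with more in RETi + FGFRi replicate 2, and it rose 1.48-fold (log2 0.56, SE 0.097, edgeR adjusted p = 0.0028). IFIT5 rose least, from 2041 and 1789 to 2383 and 2322 (1.23-fold, log2 0.29, SE 0.082, edgeR adjusted p = 0.025).

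Without RETi + FGFRi replicate 1, IFIT1, IFIT2, IFIT3 and IFIT5 still rose, with log2 fold changes of 1.06, 0.72, 0.71 and 0.28. Of the 4, IFIT5 lost its call without RETi replicate 2 (adjusted p = 0.25), and the other 3 kept it whichever library was left out. Per kilobase of transcript, IFIT1 and IFIT3 reached the same level with RETi + FGFRi (4813 and 4809 normalised counts per kb) from 2244 and 2889 with RETi. In hg19 the gene LIPA spans IFIT2, IFIT3 and IFIT1, and whether reads were counted by strand is not stated. LIPA had 6340 and 6691 counts with RETi and 5693 and 5971 with RETi + FGFRi (log2 -0.07, edgeR adjusted p = 0.51).

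The OAS genes encode 2'-5'-oligoadenylate synthetases, which sense double-stranded RNA and make the messenger that activates RNase L. OASL is the family member without synthetase activity and acts with the RNA sensor RIG-I. OASL and OAS1 rose, and OAS2 and OAS3 did not pass. OASL (chr12:121458095-121477045) had 776 and 742 normalised counts with RETi and 1255 and 1103 with RETi + FGFRi, with no overlap and a small spread in both groups. It rose 1.55-fold (log2 0.63, SE 0.091, edgeR adjusted p = 0.0012), and it kept its call whichever library was left out.

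OAS1 had 845 and 763 normalised counts with RETi, and 1316 and 958 with RETi + FGFRi (log2 0.50, SE 0.13, edgeR adjusted p = 0.021). Both RETi + FGFRi libraries were above RETi, replicate 1 by more. It no longer passed when RETi + FGFRi replicate 1 (adjusted p = 0.063) or RETi replicate 2 (0.12) was left out. OAS3, the most abundant of the family by counts, had 2680.1 and 3029 normalised counts with RETi and 4449 and 2852 with RETi + FGFRi. Only RETi + FGFRi replicate 1 stood above RETi (log2 0.35, SE 0.16, edgeR adjusted p = 0.14), and without it the log2 fold change was -0.00. OAS2 had 365 and 318 against 596 and 377 (log2 0.51, 95% interval 0.11 to 0.91, edgeR adjusted p = 0.065). The 3 synthetase genes lie together on chromosome 12, and all 3 were higher in RETi + FGFRi replicate 1 than in replicate 2 (log2 ratios 0.46, 0.66 and 0.64).

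The IFITM proteins sit in cell membranes and hinder the fusion of enveloped viruses, and BST2 (tetherin) holds budding virus at the cell surface. IFITM1 and BST2 rose, while IFITM2 and IFITM3 stayed within the spread of the libraries. BST2 had 576 and 494 normalised counts with RETi and 1168 and 646 with RETi + FGFRi (log2 0.76, SE 0.21, edgeR adjusted p = 0.025). IFITM1 had 287 and 277 against 659.8 and 332 (log2 0.81, SE 0.24, edgeR adjusted p = 0.035). For both genes RETi + FGFRi replicate 2 was only slightly above RETi. Neither passed when RETi + FGFRi replicate 1 (adjusted p = 0.070 and 0.19) or RETi replicate 2 (0.12 and 0.12) was left out, or with DESeq2 (0.21 and 0.25).

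IFITM3, the most abundant member per kilobase of transcript (21097 normalised counts per kb with RETi), had 13131 and 12649.5 normalised counts with RETi and 14459.7 and 11763 with RETi + FGFRi. The RETi libraries lay between the RETi + FGFRi libraries (log2 0.02, SE 0.10, 95% interval -0.21 to 0.25, edgeR adjusted p = 0.90). IFITM2 had 3112 and 3222 normalised counts against 3062 and 3187 (log2 -0.02, 95% interval -0.18 to 0.14, edgeR adjusted p = 0.85). Each of these intervals leaves out the rise of 0.81 fitted for IFITM1 (95% interval 0.27 to 1.34). The difference between the genes was not itself tested. Without RETi + FGFRi replicate 1 the log2 fold changes were 0.24 for IFITM1, -0.13 for IFITM3 and 0.01 for IFITM2, so the IFITM1 value depended largely on that library. The 3 IFITM genes are close copies, IFITM1 lies inside the coordinates of IFITM2 in hg19, and how reads shared between copies were assigned is not stated, so their separate values are uncertain.

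The RNA sensors bind viral RNA in the cytoplasm and start interferon production. IFIH1, which encodes MDA5, rose from 1036 and 913 normalised counts to 1439 and 1147 (log2 0.41, SE 0.11, edgeR adjusted p = 0.025). Leaving out RETi + FGFRi replicate 1 (adjusted p = 0.082) or RETi replicate 2 (0.17) ended this call. DDX58, which encodes RIG-I and had the most counts of the 3, had 4019.7 and 3784 normalised counts with RETi and 4363 and 4104 with RETi + FGFRi. Its groups did not overlap, but the difference was small and did not pass (log2 0.12, SE 0.077, 95% interval -0.05 to 0.29, edgeR adjusted p = 0.30). DDX60, a helicase linked to RIG-I signalling, had 1324 and 1258 against 1626 and 1188 and did not pass (log2 0.12, edgeR adjusted p = 0.52).

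STAT2, IRF9 and IRF7 are transcription factors of the pathway itself, and of these only STAT2 rose. STAT2, a subunit of ISGF3, had 4348 and 4307 normalised counts with RETi and 6599 and 4909 with RETi + FGFRi (log2 0.41, SE 0.12, edgeR adjusted p = 0.030). The RETi libraries were nearly equal and both RETi + FGFRi libraries were above them. Leaving out RETi + FGFRi replicate 1 (adjusted p = 0.096), RETi replicate 1 (0.057) or RETi replicate 2 (0.13) ended the call. IRF9, the DNA-binding subunit of ISGF3, had 92 and 75 counts with RETi and 148 and 95 with RETi + FGFRi. It did not pass (log2 0.63, 95% interval 0.10 to 1.16, edgeR adjusted p = 0.078). In hg19 another gene spans all of IRF9. That gene had 12 and 19 counts with RETi and 42 and 12 with RETi + FGFRi. How reads shared between them were assigned is not stated, so the low IRF9 counts and their change are uncertain. IRF7, which drives interferon genes, had 2099 and 1946 normalised counts against 2844 and 2079 (log2 0.28, edgeR adjusted p = 0.12), with RETi + FGFRi replicate 2 between the RETi libraries.

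ISG15 is a ubiquitin-like protein that is joined to other proteins by the conjugating enzyme UBE2L6 and the ligase HERC5 and is removed by USP18. ISG15 and UBE2L6 rose, and HERC5, HERC6 and USP18 did not pass. ISG15 (chr1:948803-949920) had 4447 and 4325 normalised counts with RETi and 7968 and 5174 with RETi + FGFRi, a mean of 4386 ± 86.5 against 6571 ± 1976 (SD, n = 2). The RETi libraries were nearly equal, and most of the spread lay between the RETi + FGFRi libraries. The rise was 1.50-fold (log2 0.58, SE 0.16, edgeR adjusted p = 0.021). It was 0.24 on the log2 scale without RETi + FGFRi replicate 1 (adjusted p = 0.028), and the call was lost without RETi replicate 2 (0.096) and with DESeq2 (0.18).

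UBE2L6 rose by the smallest step of the 21, from 2081 and 2153 normalised counts to 2612 and 2388 (log2 0.24, SE 0.078, edgeR adjusted p = 0.049). This call was at the edge of the threshold and was lost without RETi replicate 1 (adjusted p = 0.24), RETi replicate 2 (0.16) or RETi + FGFRi replicate 1 (0.13), with DESeq2 (0.068) and without the filter on low counts (0.068). HERC5 had 1843 and 1669.5 against 2327 and 1896 (log2 0.26, edgeR adjusted p = 0.084). HERC6 was lower in RETi + FGFRi replicate 2 than in RETi replicate 1 (log2 0.24, adjusted p = 0.24). USP18, which also blocks signalling at the receptor subunit IFNAR2, had 289 and 236 normalised counts against 315 and 233 (log2 0.06, 95% interval -0.30 to 0.41, edgeR adjusted p = 0.84). Its lowest and highest libraries were both RETi + FGFRi.

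The PARP genes of the list encode ADP-ribosyltransferases, and DTX3L is a ubiquitin ligase that works as a complex with PARP9. None of the 4 passed the test, although all 4 fitted log2 fold changes were positive (0.23 to 0.30, edgeR adjusted p from 0.077 to 0.19). At an unadjusted p under 0.05, edgeR and DESeq2 each placed 3 of them higher, a threshold at which the share of all genes was not counted. PARP14, the most abundant by counts, had 6183 and 5605 normalised counts with RETi and 7842 and 5965 with RETi + FGFRi (log2 0.23, SE 0.12, adjusted p = 0.19). Only RETi + FGFRi replicate 1 lay above both RETi libraries. PARP9 overlapped as well, while PARP12 and DTX3L lay wholly above RETi by a small margin. PARP9 and DTX3L share 340 bases of coordinates in hg19.

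Among 9 further antiviral effectors, 6 rose (12.8% of all tested genes rose): CMPK2, RSAD2, TRIM22, SAMD9, SAMD9L and ISG20. CMPK2 (chr2:6980701-7006766), a nucleotide kinase of mitochondria, had 208 and 192 normalised counts with RETi and 405 and 297 with RETi + FGFRi (1.75-fold, log2 0.81, SE 0.16, edgeR adjusted p = 0.0050). The groups were well apart and the call held whichever library was left out. Its neighbour RSAD2 encodes viperin, an enzyme that makes a chain-terminating nucleotide from the product of CMPK2. RSAD2 had 455 and 356 normalised counts against 716 and 477, so that RETi + FGFRi replicate 2 was barely above RETi replicate 1 (log2 0.55, SE 0.18, edgeR adjusted p = 0.042). RSAD2 no longer passed when RETi + FGFRi replicate 1 (adjusted p = 0.18) or RETi replicate 2 (0.24) was left out. The coordinates of both genes share 830 bases.

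TRIM22, a ubiquitin ligase, had 466 and 446 normalised counts with RETi and 914 and 529 with RETi + FGFRi (log2 0.66, SE 0.20, edgeR adjusted p = 0.033). SAMD9 and SAMD9L are neighbouring genes on chromosome 7 whose products inhibit poxviruses and translation. SAMD9 had 1265 and 1083 normalised counts against 1664 and 1427 (log2 0.39, SE 0.10, edgeR adjusted p = 0.019), and SAMD9L had 925 and 836 against 1347 and 1018 (log2 0.42, SE 0.12, edgeR adjusted p = 0.030). ISG20, an exonuclease, had 403 and 366 against 508 and 460.1 (log2 0.33, SE 0.11, edgeR adjusted p = 0.044). In all 4 genes both RETi + FGFRi libraries were above RETi, with the largest gap between them in TRIM22.

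Without RETi + FGFRi replicate 1 the calls of TRIM22, SAMD9L and ISG20 were lost (adjusted p = 0.16, 0.12 and 0.11) and that of SAMD9 held (0.032). Without RETi replicate 2 all 4 were lost (adjusted p = 0.12 for TRIM22, 0.17 for SAMD9, 0.17 for SAMD9L and 0.26 for ISG20), and ISG20 was lost also without RETi replicate 1 (0.073), without the filter on low counts (0.051) and with DESeq2 (0.10), as was TRIM22 with DESeq2 (0.23). TRIM22 lies inside the coordinates of TRIM5 in hg19, which did not pass (log2 0.16, adjusted p = 0.14).

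EIF2AK2, which encodes the kinase PKR that halts translation on double-stranded RNA, was the most abundant of these effectors by counts. It had 3319 and 3015 normalised counts with RETi and 4104 and 3187 with RETi + FGFRi and did not pass (log2 0.20, SE 0.11, 95% interval -0.05 to 0.45, edgeR adjusted p = 0.21). The MX genes encode dynamin-like GTPases that trap viral nucleocapsids, and both were low in these cells. MX1, elsewhere a common marker of interferon response, had 35, 56, 37 and 36 counts in RETi replicates 1 and 2 and RETi + FGFRi replicates 1 and 2, with RETi replicate 2 the highest (log2 -0.23, 95% interval -0.85 to 0.39, edgeR adjusted p = 0.59). MX2 had 94 and 96 counts against 169 and 106 (log2 0.63, 95% interval 0.12 to 1.13, edgeR adjusted p = 0.071).

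Of the 8 remaining members (IFI genes, XAF1, SP110 and LGALS3BP), IFI44L, IFI44 and XAF1 rose (12.8% of all tested genes rose). IFI44L and IFI44 are paralogs that lie side by side on chromosome 1 (chr1:79085607-79111830 and chr1:79115481-79129763). IFI44L had 2759 and 2546 normalised counts with RETi and 7540.1 and 4164 with RETi + FGFRi, a mean of 2652 ± 150.3 against 5852 ± 2387 (SD, n = 2). Both RETi + FGFRi libraries were well above RETi, and they differed widely from each other. The rise was 2.20-fold (log2 1.14, SE 0.20, edgeR adjusted p = 0.0034) and 0.65 on the log2 scale without RETi + FGFRi replicate 1. IFI44 had 1982 and 1876 normalised counts against 3982 and 2629 (1.71-fold, log2 0.78, SE 0.15, edgeR adjusted p = 0.0053), and 0.45 without that library. Both genes kept their calls whichever library was left out.

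XAF1, whose product binds an inhibitor of apoptosis protein, had the largest fitted rise of the members and also the lowest level per kilobase (12.7 normalised counts per kb with RETi). It had 54 and 35 counts with RETi and 128 and 61 with RETi + FGFRi (2.26-fold, log2 1.18, SE 0.36, edgeR adjusted p = 0.035). RETi + FGFRi replicate 2 was only just above RETi replicate 1, and XAF1 no longer passed when RETi + FGFRi replicate 1 (adjusted p = 0.22) or RETi replicate 2 (0.20) was left out.

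IFI6 and IFI27, whose products sit in mitochondrial or other internal membranes, were raised in RETi + FGFRi replicate 1 alone and did not pass. IFI6 had 9901 and 9057 normalised counts with RETi and 15828 and 9499.5 with RETi + FGFRi (log2 0.42, SE 0.18, edgeR adjusted p = 0.12). IFI27 had 845 and 933 against 1515 and 793 (log2 0.37, SE 0.22, edgeR adjusted p = 0.24). In both genes RETi + FGFRi replicate 2 was no higher than the higher RETi library. IFI35 and SP110 lay above RETi in both libraries but did not pass (log2 0.22 and 0.25, edgeR adjusted p = 0.14 and 0.074).

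LGALS3BP, a secreted glycoprotein that binds galectins, was the only member with both RETi + FGFRi libraries below RETi. It had 18950.1 and 20726 normalised counts with RETi and 18022 and 15673 with RETi + FGFRi, a mean of 19838 ± 1256 against 16848 ± 1661 (SD, n = 2). It did not pass in the fit of all 4 libraries (log2 -0.24, SE 0.098, 95% interval -0.45 to -0.02, edgeR adjusted p = 0.10) and was called lower without RETi + FGFRi replicate 1 (log2 -0.34, adjusted p = 0.0019).

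**Figure D4:**
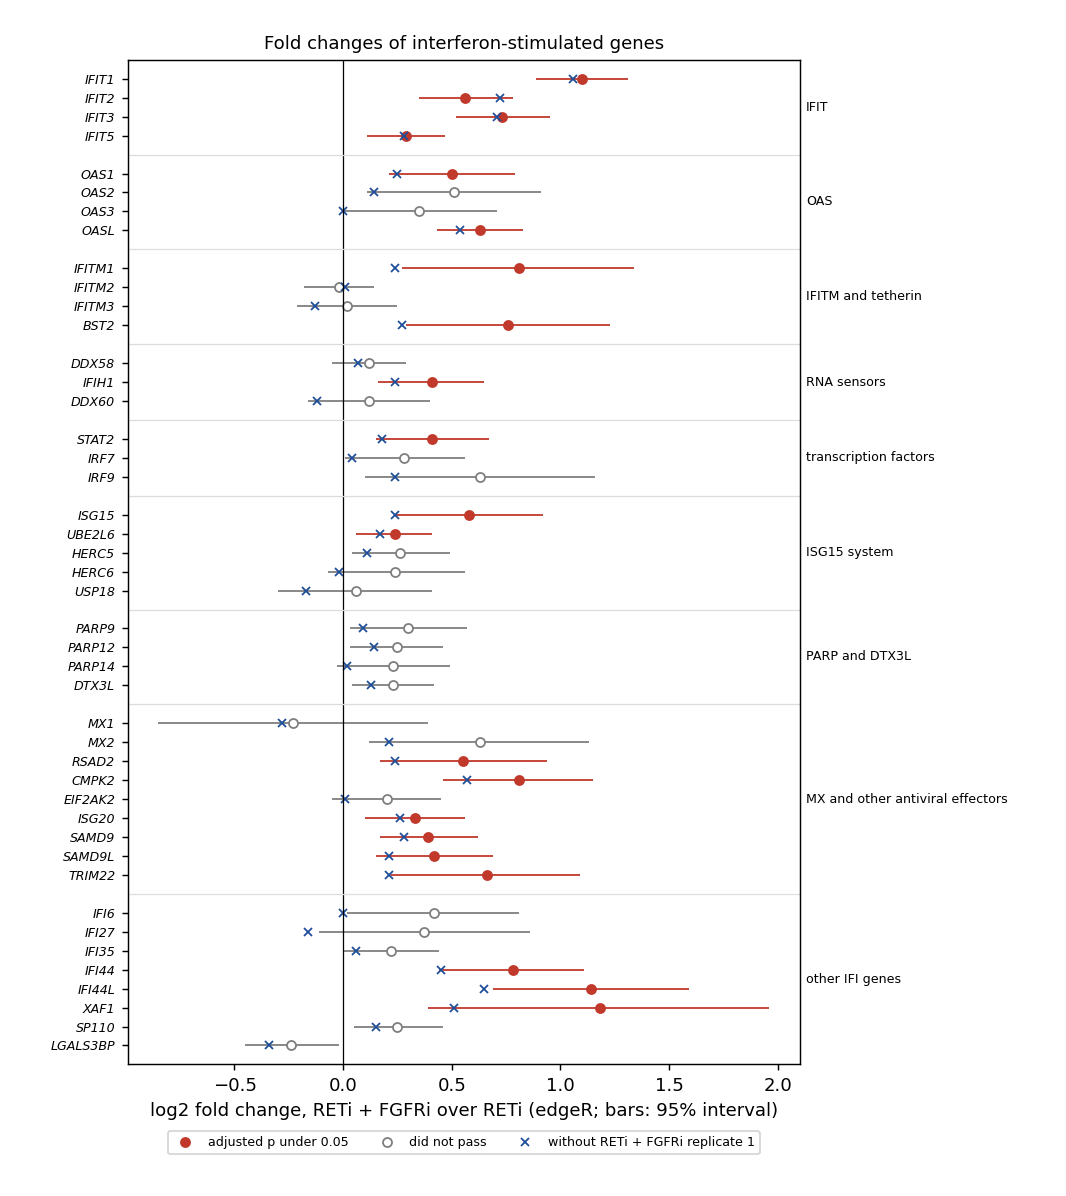
Log2 fold change of each member, RETi + FGFRi over RETi, from edgeR (points, with 95% intervals as bars), filled red where adjusted p was under 0.05 and open grey where it was not. Blue crosses give the log2 fold change without RETi + FGFRi replicate 1, which stay near the points for IFIT1, IFIT3 and IFIT5, lie higher for IFIT2 and fall towards 0 for most others.

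Across the 44 members and 10 settings (the main test and 9 alternatives, each with 1 library left out or another processing choice), 7 members were higher in every one: IFIT1, IFIT2, IFIT3, OASL, CMPK2, IFI44 and IFI44L. Over all tested genes 4.09% were higher in every setting. The other 14 members that rose lost their call in at least 1 alternative. The log2 fold change was positive in every setting for 35 members and for 34.2% of all tested genes. The members called higher numbered 16 with DESeq2 (10.8% of all genes), 21 with RLE normalisation (13.4%), 21 with a filter at 1 CPM (14%), 19 with no filter on low counts (9.34%) and 35 with a replicate block (16%), and none was called lower in these 5 (8.2%, 10.6%, 11.9%, 8.34% and 13.6% of all genes in the same order). In levels per kilobase the order with RETi was led by IFITM3 (21097 normalised counts per kb), IFI6 (11674), LGALS3BP (9009) and ISG15 (6885), and it ended with MX2 (27.0), MX1 (15.9) and XAF1 (12.7). The members that rose thus came from across the range of levels, and the most abundant ones, IFITM3, IFI6 and LGALS3BP, were not among them.

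The upstream parts of the pathway were followed with lists of ligands, receptors, kinases, sensors and inhibitors. Of 10 interferon genes only 1 passed the filter on low counts, IFNE, which encodes interferon epsilon, a type I interferon best known from the reproductive tract. It had 25 and 32 counts with RETi and 84 and 49 with RETi + FGFRi and rose (log2 1.31, SE 0.32, edgeR adjusted p = 0.015). Both RETi + FGFRi libraries were above RETi and replicate 1 was the higher, as in most members. It narrowly failed when RETi + FGFRi replicate 1 (adjusted p = 0.061), RETi replicate 1 (0.053) or RETi replicate 2 (0.052) was left out. IFNB1, which encodes interferon beta, had 1 and 0 counts with RETi and 3 and 1 with RETi + FGFRi. IFNL1 had 0 and 2 against 5 and 2, and IFNA2, IFNK, IFNG and IFNL2 had 0 in all 4 libraries, so a change in these genes was not detectable at this depth.

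Among 6 receptor genes 2 rose and 1 fell, where 12.8% of all tested genes rose and 11.3% fell. IFNGR1, the ligand-binding subunit of the interferon gamma receptor, had 4372 and 4076 normalised counts with RETi and 6251 and 6526 with RETi + FGFRi (log2 0.59, SE 0.076, edgeR adjusted p = 0.00072). Its RETi + FGFRi libraries were close together, and replicate 2 was the higher. IFNAR2 of the type I receptor had 1126 and 1126 against 1548 and 1400.4 (log2 0.39, SE 0.083, edgeR adjusted p = 0.0082), a call lost without RETi replicate 2 (0.058). IFNLR1 of the type III receptor fell from 188 and 187 to 148 and 126 (log2 -0.46, SE 0.15, edgeR adjusted p = 0.043), a call lost without RETi + FGFRi replicate 2 (0.15), RETi replicate 1 (0.16) or RETi replicate 2 (0.17), and with DESeq2 (0.14). IFNAR1, IFNGR2 and IL10RB did not pass.

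The kinase genes JAK1, JAK2 and TYK2 did not pass the test with edgeR or DESeq2, and at an unadjusted p under 0.05 each tool placed 1 of them, JAK2, higher. JAK2 had a log2 fold change of 0.26 (adjusted p = 0.074), TYK2 of 0.09 and JAK1 of -0.05. Of 3 tested interferon regulatory factors outside the member list (IRF1, IRF2 and IRF5), none passed, 0 had an unadjusted p under 0.05 with edgeR or DESeq2, and IRF1 had a log2 fold change of 0.13 (edgeR adjusted p = 0.25).

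Among 13 tested genes that link nucleic acid sensing to interferon, 0 rose and 1 fell, against 12.8% and 11.3% of all tested genes. At an unadjusted p under 0.05, 1 was higher with edgeR and 0 with DESeq2, and 3 were lower with each. TMEM173, which encodes STING, the adaptor of cytosolic DNA sensing, had 3381 and 3819 normalised counts with RETi and 2716 and 2683 with RETi + FGFRi (log2 -0.42, SE 0.081, edgeR adjusted p = 0.0052). The groups did not overlap and the RETi + FGFRi libraries were nearly equal. Its call was lost without RETi replicate 2 (adjusted p = 0.067). MB21D1, which encodes the DNA sensor cGAS, and TICAM1, the adaptor of TLR3, also lay below RETi in both libraries but did not pass (log2 -0.35 and -0.28, edgeR adjusted p = 0.061 and 0.056).

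Of 4 tested negative regulators, SOCS1, which inhibits JAK kinases, fell from 114 and 94.9 normalised counts to 60.4 and 62.4 (log2 -0.77, SE 0.19, edgeR adjusted p = 0.016). Its call was lost without RETi replicate 1 (adjusted p = 0.14) and with DESeq2 (0.052). The phosphatase gene PTPN2, whose product removes phosphate from JAK and STAT proteins, rose from 1248 and 1092 to 1448 and 1647 (log2 0.40, SE 0.092, edgeR adjusted p = 0.011), a call lost without RETi replicate 2 (0.12). SOCS3 and PIAS1 did not pass. These inhibitors therefore did not move in 1 direction, where 12.8% of all tested genes rose and 11.3% fell.

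Among 7 tested targets better known from interferon gamma, GBP1 and GBP3 rose (12.8% of all tested genes rose). Both encode guanylate-binding proteins, GTPases that coat intracellular pathogens. GBP1 had 1964 and 1739.5 normalised counts with RETi and 3183 and 2793 with RETi + FGFRi (log2 0.69, SE 0.091, edgeR adjusted p = 0.00086), and kept its call whichever library was left out. GBP3 had 2684 and 2242 against 3243 and 3040.3 (log2 0.35, SE 0.092, edgeR adjusted p = 0.021), a call lost without RETi replicate 2 (0.21). GBP2 did not pass (log2 0.05, 95% interval -0.13 to 0.23), nor did IDO1, which had 3 to 17 counts (log2 1.41, edgeR adjusted p = 0.084).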

How the data were processed

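TruSeq RNA libraries of TPC1 cells were sequenced. Single-end reads of 50 bp are given in the labels, and STAR 2.3, DESeq2 and hg19 in the processing notes of the submitters. The methods of the study describe paired-end reads and a later STAR, and which applies is uncertain. The tool that assigned reads to genes and its use of strand are not given in the sources used here. For each library the authors deposited counts of reads per gene, not normalised. A normalised signal stands beside them, for which the authors divided the counts by 1 size factor per library (0.944 to 1.04). Per the file headers, 6 further columns hold their DESeq2 comparison (mean, fold change, standard error, statistic, p-value and adjusted p-value) and were not used.

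Groups and replicate numbers came from the labels. The test was the quasi-likelihood F-test of edgeR 4.0.16 (R 4.3.3) on the counts as deposited (TMM, filterByExpr with a minimum of 10 counts, no covariates, all 4 libraries), with Benjamini-Hochberg adjustment over 12794 genes and a threshold of 0.05. The fit had 2 residual and 8.96 prior degrees of freedom. Libraries of a group differed beyond sampling noise (chi-square per degree of freedom 7.91 and 14; between groups 42.7 to 62.9) and were not merged. The script was tested on simulated data. Log2 ratios of single libraries used normalised counts plus a pseudocount of 1. Levels per kilobase used the canonical transcript lengths of GENCODE. Promoter windows came from RefSeq, another build than the files, and were matched by symbol.

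Alternatives were RLE normalisation, DESeq2 1.42.0, no filter on low counts, a filter of 1 CPM in 2 libraries, a replicate block and leaving out each library. The members and lists were chosen with earlier results of these data known. Values per library are given for each member that passed the test and for the member with the highest mean count of each subfamily, and for others where a subfamily is described. From each pathway list at most 4 tested genes with the smallest p are named, and a few more were named after their values were seen. Some genes of the lists are not reported here.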

Additional observations from a re-analysis of the deposited data

How the results depend on the processing

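The count of members called higher was 21 with RLE normalisation, 21 with the filter at 1 CPM, 19 without a filter on low counts, 16 with DESeq2 and 35 with a replicate block, and from 7 to 38 with each library left out. The count called lower was 0 in all of these but for 1 without RETi + FGFRi replicate 1. The median log2 fold change of the members ranged from 0.18 to 0.54 with a library left out and was 0.35 with the replicate block. Over all genes, DESeq2 called 1331 higher and 1008 lower against 1643 and 1446, and leaving out a library gave 691 to 1942 higher and 553 to 1503 lower. With a library left out the log2 fold change of 8 members, none of which had passed, changed sign. Its range was -0.00 to 0.64 for OAS3, -0.05 to 0.01 for IFITM2, -0.13 to 0.17 for IFITM3, -0.12 to 0.34 for DDX60, -0.02 to 0.48 for HERC6, -0.17 to 0.27 for USP18, -0.16 to 0.77 for IFI27 and -0.51 to 0.13 for MX1. The library was RETi + FGFRi replicate 1 for all but MX1, and RETi replicate 2 for MX1, IFITM2, IFITM3 and USP18. The cause of these changes was not tested. Over all genes, same-numbered libraries of the groups showed a correlation of deviations of 0.03, and nothing in the labels pairs them, so the numbers were not taken as a pairing. Over the members, however, replicate 1 was above replicate 2 in both groups in 36 of 44 (23.5% of all genes), and the block kept all 21 calls and added 14. With 2 libraries per group, an exact permutation test of 1 gene cannot go below p = 0.333, so calls rest on the spread shared across genes, and members with few counts (MX1, MX2, IRF9 and XAF1) have wide intervals.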
